A study of Mus musculus with 4 samples.

Results

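Immediate early genes were examined in m6A-seq data of mouse brain, as the peaks that 2 immunoprecipitation (IP) replicates gave over the annotated exons of Fos, Fosb, Jun, Junb, Egr1, Egr3, Arc, Npas4, Nr4a1 and Ier2. These 10 genes were listed by name, out of 21866 protein-coding genes, and although the rule used no measured value, the list was drawn up with earlier results of these data known, which limits every comparison with other genes. m6A-seq fragments mRNA, pulls down the pieces that carry N6-methyladenosine (m6A) with an antibody and sequences them beside the RNA that was not pulled down, the input. The series held 4 samples, of which 2 were m6A IP and 2 were input, and all came from whole brain at 4 weeks of age. The strain is given as C57BL/6J and the mice as Prrc2a flox/flox, and no Cre driver is named for them. All samples therefore share 1 genotype and 1 age, and no treatment or other condition was set against them. Each replicate gave its own peak list against its own input, with 38533 peaks in replicate 1 and 30134 in replicate 2, and the value of a peak is its fold enrichment of IP over input. The lists hold no read counts, so the depth behind a peak is unknown. Markers fixed for brain cells had a peak common to both lists in 6 of 7 neuronal, 4 of 4 astrocyte, 4 of 4 oligodendrocyte and 3 of 3 microglial genes, and in 1 of 8 genes of other organs (Myh6).

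Immediate early genes are transcribed within minutes of synaptic activity or growth factor signals, without new protein synthesis, and their mRNAs are short-lived. Many encode transcription factors that switch on a later wave of genes, while Arc acts directly at the synapse. m6A is written on mRNA during transcription, mostly within a GGAC core in long exons and around stop codons, and proteins that bind it influence how long an mRNA lasts and how it is translated.

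All 10 immediate early genes carried m6A peaks in both replicates, and each had at least 1 shared peak, that is, an exonic peak of replicate 1 that overlapped a peak of replicate 2 by at least 1 bp. Over all protein-coding genes, 54.4% had an exonic peak in replicate 1, 49.5% in replicate 2 and 45.5% a shared peak. Among the 11973 genes with an mRNA as long as those examined (1522 to 4484 nt) the shared portion was 48.3%. A peak can be called only where the mRNA is present, and mRNA levels were not measured by these lists, so that the portions over all genes can include genes without mRNA in brain. In whole brain, fewer cells with an mRNA and less of it per cell cannot be told apart. The 10 genes held 26 peaks in replicate 1, of which 21 were shared, and 26 in replicate 2, of which 19 were shared. These shares, 80.8% and 73.1%, were above that of all peaks in replicate 1 (60.0%) and below it in replicate 2 (77.0%). The common bases of these peaks formed 21 shared intervals, with 1 to 3 per gene.

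A shared interval across the stop codon was present in 9 of 10 genes, namely Fos, Fosb, Jun, Junb, Egr1, Egr3, Arc, Nr4a1 and Ier2, and the exception among the 10 was Npas4. Such an interval was found in 51.5% of all genes with a shared peak, in 50.3% of those with an mRNA in the same range of length and in 66.6% of 335 single-exon mRNAs. The 9 intervals had a median width of 665 nt, against 442 nt for all intervals over a stop codon, and the shares above were not matched on width. With the first base of the stop codon as position 0, the 9 intervals all contained the stretch from -11 to 232. Their fold enrichment ranged from 2.42 to 7.50 in replicate 1 (median 4.09) and from 1.90 to 3.48 in replicate 2 (median 2.65), and it was higher in replicate 1 in 8 of 9. The count depended on how overlap was defined, since 5 genes kept such an interval when the midpoints of both peaks had to lie within 100 bp. No share over all genes was formed under that rule, so these 5 cannot be set against the shares above.

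**Figure D1:**
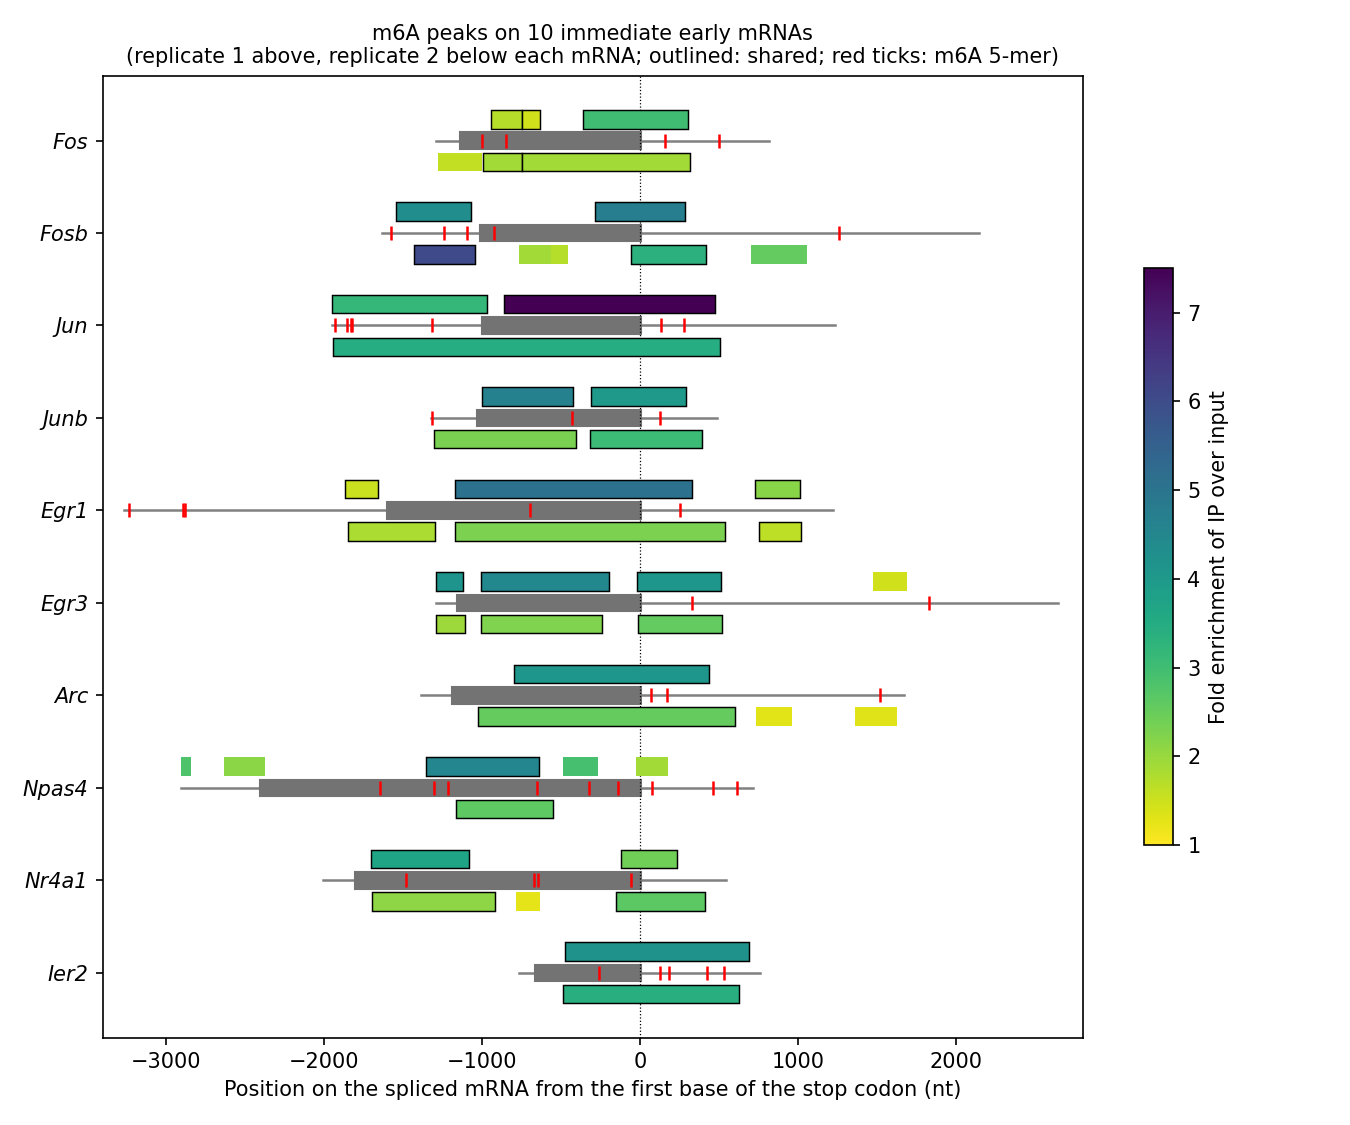
Peaks of both replicates on the spliced mRNA of the 10 genes, with the horizontal axis giving nt from the first base of the stop codon (dotted line), the coding sequence as a thick grey bar and untranslated regions as thin lines. Boxes above each mRNA are replicate 1 and boxes below are replicate 2, coloured by fold enrichment (1 to 7.5), with an outline where shared and red ticks at GGACT. In 9 of 10 genes outlined boxes of both replicates cross the stop codon, and in Npas4 the outlined boxes lie in the coding sequence.

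GGACT, a common form of the m6A consensus, lay inside 8 of the 9 intervals at stop codons. It lay inside 54.9% of all 5092 such intervals, whose median width was 442 nt. Among those within the width range of the ones examined here (345 to 1502 nt) the share was 62.1%. That set was matched on the range only, and the 9 intervals had a median of 665 nt. The motif was searched on the strand of the mRNA, and the window below gives 10 bases on either side, read from the GRCm38 sequence of RefSeq along the transcripts of GENCODE M21, with the motif in capitals. Shown are the sites between -56 and 331, apart from the Egr1 site at 250. They were chosen for lying close to the stop codon, within the peaks that most of these genes have in common. The number after each gene is the position of the adenosine counted from the first base of the stop codon. Further GGACT inside these intervals, at -262, 424 and 530 in Ier2 and at -698 and 250 in Egr1, are not printed here.
Fos 158, chr12:85476612-85476616, plus strand: tgggcctcaaGGACTtgcaagcatc
Jun 130, chr4:95050137-95050141, minus strand: tacacaagatGGACTgggttgcgac
Jun 276, chr4:95049991-95049995, minus strand: ccagaacgatGGACTtttcgttaac
Junb 126, chr8:84977269-84977273, minus strand: ctcacacactGGACTccggcccgcc
Egr3 331, chr14:70080232-70080236, plus strand: gacctacgggGGACTgaaggcgggg
Arc 66, chr15:74671116-74671120, minus strand: ttgccaactaGGACTtgagctgggg
Arc 171, chr15:74671011-74671015, minus strand: catgctacatGGACTgaacatcaag
Nr4a1 -56, chr15:101274192-101274196, plus strand: tcaagttggaGGACTtggtaccccc
Ier2 123, chr8:84661963-84661967, minus strand: gccaggggaaGGACTgaggagcgag
Ier2 185, chr8:84661901-84661905, minus strand: tgctattaaaGGACTgtcccttcct

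Within the first 200 nt of the 3′ UTR, 6 of the 10 genes had a GGACT (Fos, Jun, Junb, Arc, Npas4 and Ier2), with 8 sites in all, and 7 of these sites lay in shared intervals. The 9 intervals at stop codons all contained the stretch from -11 to 232, so that any site here in those genes had to lie inside. The site outside was that of Npas4, which has no such interval, and the 7 are therefore no separate result. Of the genes with a shared peak, 23.2% had a GGACT in that stretch, and 23.7% of those in the same range of length. Fosb had none inside its interval at the stop codon, which held 5 copies of the shorter core GGAC, all in the 3′ UTR. They are printed for the contrast, with the core in capitals and the following base in lower case. The base after the core was C or A, so that none reads GGACT.
Fosb 99, chr7:19304743-19304746, minus strand: gtgtgtgtgtGGACcctttgactc
Fosb 144, chr7:19304698-19304701, minus strand: ctctgccatcGGACatgacggaag
Fosb 157, chr7:19304685-19304688, minus strand: catgacggaaGGACctcctttgtg
Fosb 231, chr7:19304611-19304614, minus strand: gtgactttggGGACagggggtggg
Fosb 253, chr7:19304589-19304592, minus strand: gggcggggatGGACacccctcctg

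The genes were next described by role, beginning with the AP-1 factors. Fos and Fosb dimerise with Jun proteins through a leucine zipper to form AP-1, which binds DNA. Fos, the gene most often used as a marker of recent neuronal activity, lies on chromosome 12 (85473890 to 85477273, plus strand) with 4 exons. Its interval at the stop codon had fold enrichments of 2.995 in replicate 1 (chr12:85476097-85476761) and 1.90 in replicate 2, where a single wider peak (chr12:85475500-85476771) took in exon 3 too. Exon 2 held a weaker shared peak, at 1.71 in replicate 1 and 1.91 in replicate 2, and exons 3 and 4 one at 1.47 in replicate 1 inside the wide peak of replicate 2. A peak over the first exon and the start codon was called in replicate 2 only (1.61). The strongest peak of Fos was the lowest of the 10 genes in both replicates, while its peaks covered 46.3% of the mRNA in replicate 1 and 75.6% in replicate 2.

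Fosb (chromosome 7, 19302696 to 19310051, minus strand), whose truncated form accumulates with repeated stimulation, had its strongest peak across the stop codon in replicate 1 and in the 5′ UTR in replicate 2. The peak in the 5′ UTR reached 4.32 in replicate 1 (chr7:19309486-19309960) and 6.04 in replicate 2 (chr7:19309460-19309846), the latter above 99.7% of all replicate 2 peaks. Their common interval held 2 GGACT, at mRNA positions 395 and 537. Both are shown because this 5′ UTR peak was the strongest of the 10 genes in replicate 2.
Fosb 395, chr7:19309655-19309659, minus strand: gacagagcctGGACTttcaggaggt
Fosb 537, chr7:19309513-19309517, minus strand: ggtctactccGGACTcgcatctcat

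At the stop codon Fosb had 4.74 in replicate 1 and 3.36 in replicate 2. Shared intervals covered 6.10% of its coding sequence, the least of the 10 genes. In replicate 2 alone, further peaks were called in exon 2 (1.89), exon 3 (1.72) and the 3′ UTR (2.56).

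Jun, the partner of Fos in AP-1 (chromosome 4, 95049034 to 95052222, minus strand), is a single-exon gene and had the strongest peak of the group in replicate 1. A peak from within the coding sequence to position 473 after the stop codon reached 7.50 (chr4:95049796-95051130), above 98.9% of all replicate 1 peaks, and a second covered the 5′ UTR and the start codon at 3.18 (chr4:95051237-95052255). In replicate 2 a single peak of 2447 nt overlapped both, with a fold enrichment of 3.48 (chr4:95049767-95052213). Shared intervals took up 99.1% of its 5′ UTR, 89.5% of its coding sequence and 38.2% of its 3′ UTR, and all 7 of its GGACT were inside. The 5′ peaks overlap exons of the antisense gene Junos. The lists give no strand, so the 2 genes cannot be told apart there.

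Junb, a second Jun protein (chromosome 8, 84974484 to 84978718, minus strand), had 2 shared peaks, one within the coding sequence and one across the stop codon. The first had 4.67 in replicate 1 and 2.30 in replicate 2, and the second 4.01 and 3.06, so that their order differed between replicates. Together the shared intervals covered 86.1% of the coding sequence. The replicate 2 peak over the 5′ part began at mRNA position 18 and took in the start codon, whereas that of replicate 1 began at 323.

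Egr1 and Egr3 are zinc finger transcription factors induced by neuronal activity, and both have 2 exons. Egr1 (chromosome 18, 34859823 to 34864984, plus strand) had 3 shared intervals. That across the stop codon was 1502 nt wide, the widest of the 10 genes, with 5.06 in replicate 1 and 2.29 in replicate 2. Those before it, in the 5′ UTR (1.52 and 1.83), and behind it, in the 3′ UTR (2.16 and 1.64), were weaker in both replicates. Shared intervals covered 73.3% of the Egr1 coding sequence and 11.3% of its 5′ UTR. Egr3 (chromosome 14, 70077203 to 70082614, plus strand) had its strength spread over 3 shared intervals in place of 1. They lay over the start of the mRNA and the start codon (4.14 in replicate 1 and 1.96 in replicate 2), in the coding sequence of exon 2 (4.46 and 2.27) and across the stop codon (4.09 and 2.57). These 3 values spanned less within a replicate than the difference between replicates for each. The first interval reached beyond the annotated start of the gene by 274 nt in replicate 1 and 261 nt in replicate 2. A weak peak far into the 3′ UTR (1.47) was called in replicate 1 only.

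Nr4a1 encodes an orphan nuclear receptor (chromosome 15, 101254269 to 101274795, plus strand). The coding sequence in exon 3 of 8 had a shared peak of 3.70 in replicate 1 (chr15:101270185-101270806) and 2.097 in replicate 2 (chr15:101270190-101270969). The peak across the stop codon in the last exon had 2.42 and 2.65, the one stop codon peak of the 9 that was lower in replicate 1. Another shared interval (2.41 and 1.44) covered the first exon of another Nr4a1 transcript. Exon 5 had a peak in replicate 2 only (1.27), which held 2 more GGACT.

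Npas4, a transcription factor of the basic helix-loop-helix PAS class found mainly in neurons (chromosome 19, 4984355 to 4990316, minus strand), differed from the other 9 genes in lacking a shared interval at the stop codon. Replicate 1 gave 5 peaks and replicate 2 a single one. The only shared interval lay in exon 7, in the coding sequence, with 4.52 in replicate 1 (chr19:4986366-4987083) and 2.62 in replicate 2 (chr19:4986279-4986896). It ended 638 nt before the stop codon (position -638). A peak across the stop codon was present in replicate 1 at a low fold enrichment of 1.91 (chr19:4984892-4985159) and absent from the list of replicate 2. The remaining peaks of replicate 1 lay in exon 7 (2.92), at the start codon (2.12) and at the start of the mRNA (2.82). Npas4 had 9 GGACT, the most of the 10 genes, and 1 of them lay in the shared interval. That site and the site behind the stop codon at 78, inside the replicate 1 peak only, are printed to show that a motif near the stop codon was present here too.
Npas4 -653, chr19:4986379-4986383, minus strand, inside the shared interval: ctggtaatggGGACTgtacactcct
Npas4 78, chr19:4984990-4984994, minus strand, inside the replicate 1 peak: cacccccccgGGACTgttgggggga

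Arc, which encodes a protein that moves to active synapses and controls the removal of AMPA receptors (chromosome 15, 74669083 to 74672570, minus strand), had 1 wide shared peak. It ran from mRNA position 588 to 1821 in replicate 1 with 4.09 (chr15:74670748-74671981) and from 359 to 1987 in replicate 2 with 2.53 (chr15:74670582-74672210). The stop codon of Arc lies in the first of its 3 exons, and the peaks of both replicates stayed within that exon. In replicate 2, weak peaks followed in the 3′ UTR (1.28 and 1.31). Ier2, a small nuclear protein encoded by 1 exon (chromosome 8, 84661331 to 84662852, minus strand), had a single peak in each replicate, 4.20 in replicate 1 (chr8:84661401-84662562) and 3.41 in replicate 2 (chr8:84661463-84662578). Shared bases covered 71.6% of its coding sequence and 82.5% of its 3′ UTR, and all 5 of its GGACT lay inside.

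The strength of the peaks was then set beside that of other genes. The strongest exonic peak of the 10 genes ranged from 2.995 to 7.50 in replicate 1, with a median of 4.49, and from 1.91 to 6.04 in replicate 2, with a median of 2.64. Over 9948 genes with a shared peak the medians were 3.89 and 2.78. Of the 10 genes, 8 lay above the median of all genes with a peak in replicate 1 and 4 of 10 in replicate 2, so that the direction relative to other genes was not the same in both lists. By the lower of both values for the strongest shared peak, the median was 2.60 for the 10 genes and 2.65 for all. In replicate 1 the order from high to low was Jun, Egr1, Fosb, Junb, Npas4, Egr3, Ier2, Arc, Nr4a1 and Fos, and in replicate 2 it was Fosb, Jun, Ier2, Junb, Nr4a1, Npas4, Egr3, Arc, Egr1 and Fos. Neighbours in these orders differed by less than each of them differed between replicates, except Fosb and Jun in replicate 2, and Fos was lowest in both. The strongest peak of a gene crossed the stop codon in 6 of 10 genes in replicate 1 and in 7 of 10 in replicate 2, with Jun, Egr1, Arc and Ier2 in both counts. This compares with 36% and 36.6% of all genes with a peak and with 36.3% and 36.9% of those in the same range of mRNA length. These shares were not matched on peak width, and the peaks of the 10 genes were wider than all peaks, as given below.

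**Figure D2:**
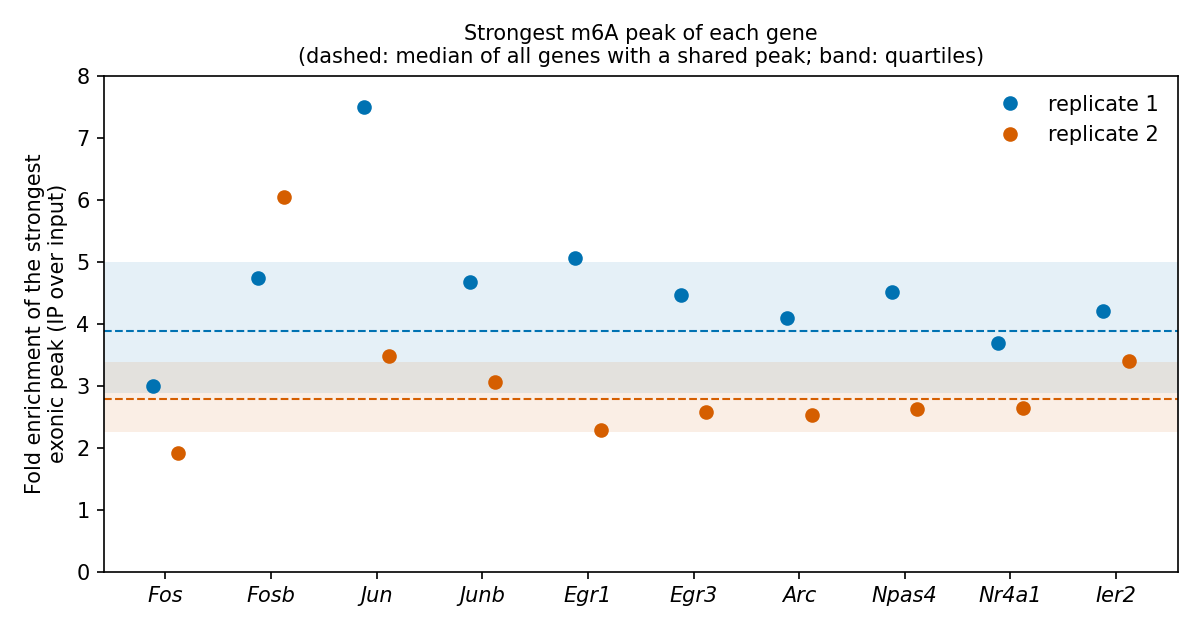
Fold enrichment of IP over input (vertical axis) of the strongest exonic peak of each gene, with 1 point for replicate 1 and 1 for replicate 2. Dashed lines are the medians of 9948 genes with a shared peak (3.89 in replicate 1 and 2.78 in replicate 2) and bands their quartiles, and Fos lies lowest in both replicates.

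Peaks were also paired one to one between the lists by their largest overlap. Among 19 such pairs in the 10 genes replicate 1 had the higher value in 15, and over all 22457 matched pairs in 77.9%. The median of the ratio of replicate 1 to replicate 2 was 1.59 for the 10 genes and 1.29 for all pairs. Peaks of the 10 genes present in 1 list were weaker than shared ones, with medians of 2.12 against 4.09 in replicate 1 (5 and 21 peaks) and 1.61 against 2.30 in replicate 2 (7 and 19 peaks). They came from Egr3 and Npas4 in replicate 1 and from Fos, Fosb, Arc and Nr4a1 in replicate 2.

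In contrast to their strength, the peaks of these genes were wide relative to the mRNA. Median widths were 544 nt (replicate 1) and 537 nt (replicate 2) for the 10 genes, whereas all peaks had medians of 349 and 343 nt. Shared intervals covered a median of 42.0% of the mRNA of the 10 genes, from 14.7% in Npas4 to 72.5% in Jun, compared with 18.2% over all genes with a shared peak and 18.8% over 5778 of them in the same range of mRNA length. The 10 mRNAs also had fewer exons, with a median of 2.5 against 9, and a higher GC content, 57.1% against 51.2%. Over genes in that range of length the median coverage was 21.8% where GC content was above 51.2% and 15.6% where it was not, and the part of GC content and exon number in the difference was not tested. Within the same range of length, the 208 single-exon genes had a median of 34.3%, and Jun, Junb and Ier2 had 72.5%, 65.2% and 72.3%. For 1205 genes with 2 to 4 exons it was 26.6%, with Fos (46.3%), Egr1 (43.5%), Arc (40.4%) and Egr3 (37.1%) above and Fosb (18.7%) below. For 1444 genes with 5 to 8 exons it was 20.02%, with Nr4a1 (37.9%) above and Npas4 below. Taken alone, the peaks of replicate 2 covered more than those of replicate 1 in 7 of 10 genes, and the medians were 44.2% in replicate 1 and 64.1% in replicate 2. The shared median fell to 21.5% when midpoints had to lie within 100 bp, and no median over all genes was formed under that rule.

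**Figure D3:**
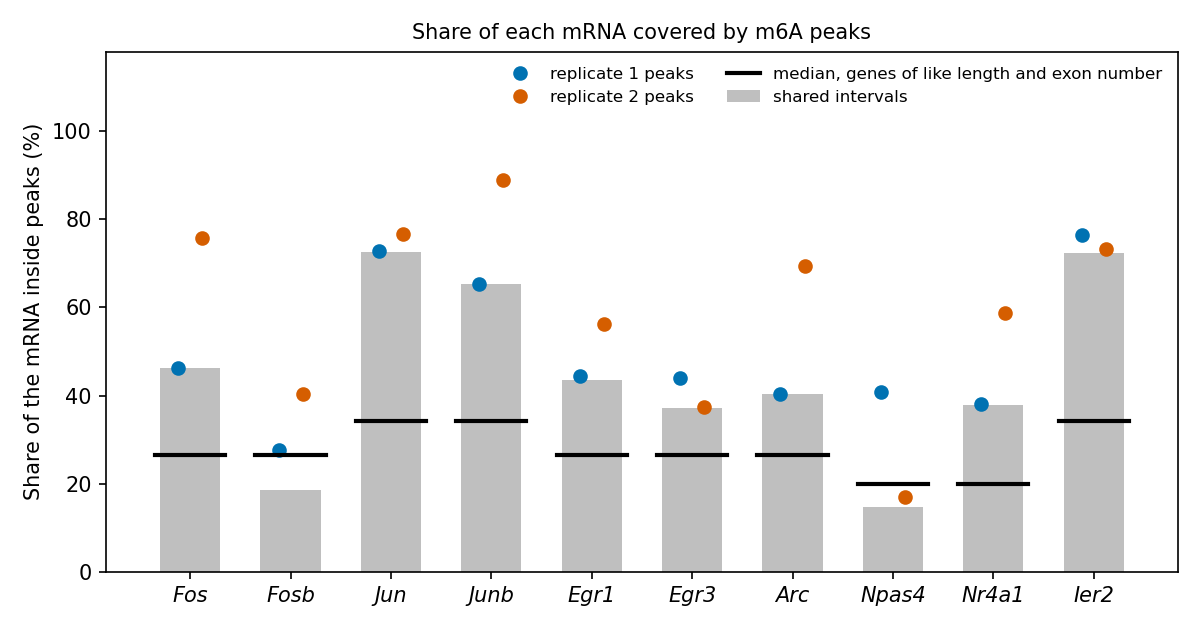
Share of each mRNA inside m6A peaks (vertical axis, percent), with grey bars for shared intervals and points for the peaks of each replicate alone. Black lines are the medians of shared coverage over genes with an mRNA of 1522 to 4484 nt and the same class of exon number (34.3%, 26.6% or 20.02%), and bars of 8 of 10 genes rise above them.

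The covered bases were distributed over the parts of the mRNA as follows. Of the coding sequence of the 10 genes 54.2% was covered, of the 5′ UTRs 33.8% and of the 3′ UTRs 30.5%, compared with 23.3%, 21.2% and 15.3% over all genes with a shared peak. The 5′ UTR portion came from Jun, Fosb, Egr1 and Egr3, and the others had no shared base there on the transcript used for mRNA positions. Jun gave 942 of the 1623 covered nt of 5′ UTR, in the interval where it cannot be told apart from Junos. The shared Nr4a1 interval over the first exon of another transcript is not counted here. A shared interval overlapped the start codon in 2 of 10 genes, Jun and Egr3, compared with 22.5% of all genes with a shared peak and 22.4% of those in the same range of mRNA length. For Jun it was the same interval, with the same limit.

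The 10 mRNAs together held 47 GGACT, 1.56 per kb, and each had at least 2. Of these, 26 lay inside shared intervals, which is 55.3% of the sites in 41.3% of the bases. In the 5′ interval of Jun, whose peaks overlap exons of Junos, lay 5 of the 26. The density was 2.09 per kb inside and 1.19 per kb outside, compared with 1.62 and 0.981 over all genes with a shared peak. For GGAC, which includes every GGACT, 83 of 141 sites lay inside, and the density was 6.68 per kb inside and 3.29 per kb outside, against 6.08 and 3.85 over all genes. A match to these letters does not show that the adenosine is methylated.

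Because immediate early mRNAs are known for AU-rich elements in their 3′ UTRs, to which proteins that speed mRNA decay bind, the 5-mer ATTTA was located there as well. It occurred 24 times in the 3′ UTRs of 8 of the genes, and not in Arc or Ier2. Shared intervals took up 30.5% of these 3′ UTRs but held 3 of the 24 sites, 2 of them in Egr1 and 1 in Junb. In Fos the 4 sites lay between 655 and 802 nt after the start of the stop codon, whereas the shared interval ended at 305. In Jun the first of 4 was at 703 and the interval ended at 473, and in Egr3 the first of 7 was at 1206 and the interval at the stop codon ended at 511. Over all genes with a shared peak, 6.39% of ATTTA sites lay inside intervals that took up 15.3% of the 3′ UTRs. The site density was lower inside than outside both for the 10 genes and for all. The count of the 10 genes rested largely on Egr1, without which 1 of 22 sites lay inside.

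**Figure D4:**
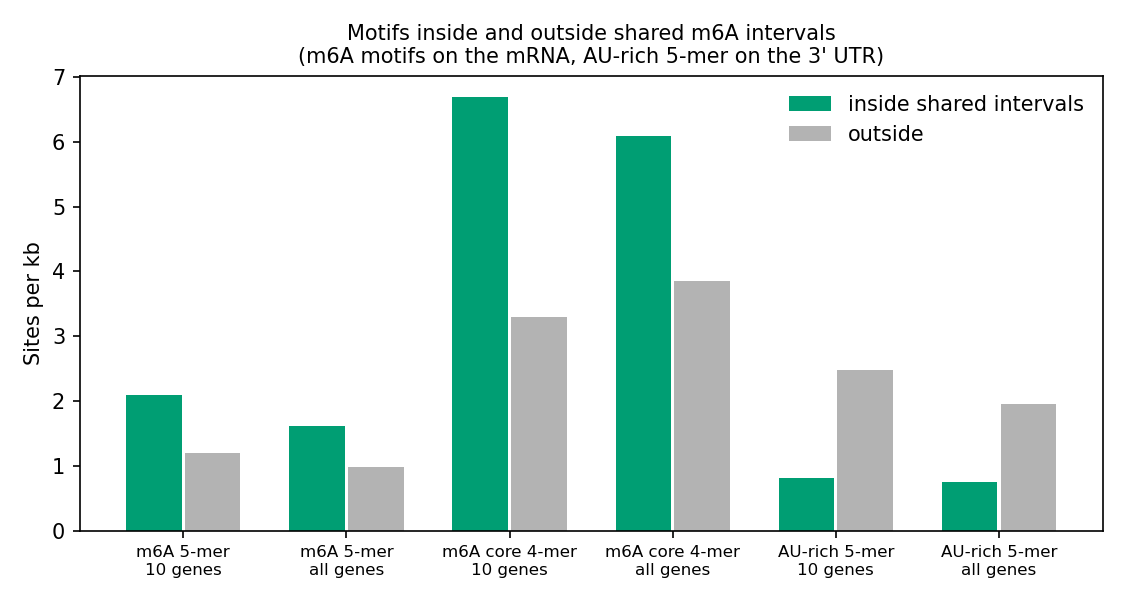
Sites per kb (vertical axis) inside shared intervals (green) and outside (grey), for the m6A 5-mer GGACT and its core GGAC on the mRNA and the AU-rich 5-mer ATTTA on the 3′ UTR, each for the 10 genes and for all genes with a shared peak. GGACT and GGAC are denser inside (2.09 against 1.19 per kb for GGACT in the 10 genes) and ATTTA is denser outside (0.804 inside against 2.47 outside).

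A further 36 genes induced early after stimulation were listed, and 31 of them (86.1%) had a shared exonic peak, beside 45.5% of all protein-coding genes. A peak was present in replicate 1 in 33 and in replicate 2 in 31. The shared interval crossed the stop codon in 22 of the 31, beside 51.5% of all genes with a shared peak. The median of the lower fold enrichment of the strongest shared peak was 3.02, beside 2.65 over all genes with a shared peak. The median coverage of the mRNA was 31.3%, beside 18.2% over all genes with a shared peak. These comparisons of the 36 genes were not matched on mRNA length, exon number, GC content or peak width. The highest lower values were found in Plk2, a kinase of synaptic homeostasis (4.55 in replicate 1 and 4.24 in replicate 2), Homer1, a postsynaptic scaffold gene with a short activity-induced form (4.11 and 5.56), the zinc finger factor gene Klf2 (6.97 and 4.04), Ccn1, which encodes a secreted matrix protein (4.82 and 3.94), and Nr4a3, a relative of Nr4a1 (4.02 and 3.75). The values given for these genes are of the strongest exonic peak in each replicate. In Nr4a3 those peaks were not a shared pair, and its highest lower value over shared pairs was 3.748. No peak was listed in either replicate for Amigo3, Atf3 and Fosl1. Ier3 and Maff, named after their values were seen, had a peak in replicate 1 only (2.50 and 4.39).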

How the data were processed

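m6A-seq of mouse whole brain gave 2 deposited peak lists, one per IP replicate. By the study's methods the authors trimmed adapters and short reads, aligned to mm10 with TopHat (TopHat2 2.0.9 in the submitters' processing notes), kept uniquely mapped reads and called peaks with MACS2 against the input of the same replicate, with duplicates kept and no fragment-size model. The deposited fold enrichment is a linear ratio of IP over input. Wide or split peaks follow the caller, and the ratio depends on the input level.

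Coordinates were used with both ends counted. GENCODE M21 on GRCm38 (the same chromosome sequences as mm10) gave exons, and 1 representative transcript per gene (longest coding sequence) gave mRNA positions. In all 10 genes the annotated start codon read ATG, and 0 peaks ended beyond a chromosome. Overlaps were computed in Python 3.11.15 with pandas 2.3.3 and checked against bedtools 2.31.1 and simulated lists. With 2 replicates of 1 condition no test was made, and values are descriptions beside all protein-coding genes. Genes were counted for every exon a peak touches, so that overlapping genes share peaks. Named genes are the 10 listed, the 5 other early genes with the highest lower fold enrichment and those with no peak, with Ier3 and Maff added after their values were seen. The members, lists and alternatives were chosen with earlier results of these data known. Nothing in the labels says whether the replicates were separate animals.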

Additional observations from a re-analysis of the deposited data

Results flagged for a closer look

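Outside the exons, 3 peaks within 2000 bp of the 10 genes overlapped none of them and enter no comparison above. A peak in an intron of Nr4a1 was present in both replicates, with a fold enrichment of 3.19 in replicate 1 (chr15:101255928-101256307) and 2.36 in replicate 2 (chr15:101256129-101256349). A peak 1235 bp behind the annotated end of Fosb had 2.24 in replicate 2 (chr7:19301130-19301461) and no counterpart in replicate 1. None of them overlapped an annotated exon of another gene.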

How the results depend on the processing

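Of 45 alternative values over 7 results, 38 stayed within 1.5 times the count or within the spread between replicates, 7 moved and 0 reversed. The 7 results are counts and medians without a direction, so that none could reverse. Requiring midpoints within 100 bp lowered the shared intervals to 12, the genes with an interval across the stop codon to 5, the median coverage to 21.5% and the GGACT inside to 14. A pair is lost under this rule when its midpoints lie further apart, be it through unequal width or through a shift in position. Which of these applied was not tested. Counting GGAC in place of GGACT gave 83 sites. Without replicate 1 or without replicate 2, when every peak of the other list was used, the median of the strongest peak was 2.64 to 4.49, the median coverage 44.2% to 64.1%, the genes with a peak across the stop codon 9 to 10 and the peaks 26. The genes with a shared peak were 8 to 10 under every alternative and those of the other early genes 29 to 33. No paired analysis was possible because the lists hold 1 value per peak, already formed from the IP and the input of the same replicate. Depth is unknown, and 2 replicates limit every value.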

Other observations

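Several peaks at the 5′ ends ran past the annotated exons. The Npas4 peak of replicate 1 at the start of the mRNA lay with 303 of its 369 nt before the annotated start of the gene. The shared Nr4a1 interval over the first exon of another transcript lay outside exons with 222 of 348 nt in replicate 1 and 187 of 313 nt in replicate 2. In Fos, 209 nt of the peak that begins in the third exon were intronic in both replicates. In all, 7 of 26 peaks in replicate 1 and 7 of 26 in replicate 2 reached outside exons.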
